A study of Schizosaccharomyces pombe with 4 samples.

Results

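Flocculins are cell-surface glycoproteins through which yeast cells stick to one another and settle out of suspension as clumps. The 7 genes described here are 6 flocculin genes of the fission yeast Schizosaccharomyces pombe, gsf2 (also called pfl1), pfl2, pfl3, pfl4, pfl5 and pfl7, and mbx2, the gene of a MADS-box transcription factor. They were taken by identifier from the 5133 genes listed in at least 1 library, and all 7 were present. In fission yeast the flocculins bind galactose on the glycans of neighbouring cells. Gsf2 is required for this non-sexual flocculation, and Mbx2 is known to switch on gsf2.

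The study compared Y41F cells with wild type (WT) cells in log phase, by RNA-seq of total RNA, with 2 libraries per group. Growth was at 30 °C in the rich medium YEA for all 4 libraries. The Y41F libraries came from strains SPBB297 (library 1) and SPBB298 (library 2), and both WT libraries from strain KOR3006. The substituted protein is not named in the labels. It is taken here, from what is known of the study, to be histone H3, with phenylalanine in place of tyrosine 41. No label gives separate cultures for the WT libraries, so the p-values reflect the spread between libraries alone, which may be technical. Within Y41F that spread includes any difference between its strains. No strain is shared between the groups, so an effect of Y41F cannot be told apart from any other difference between the strains.

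Library totals were 23616464 and 22773955 expected counts (estimated reads per gene) in Y41F and 22260430 and 20845572 in WT. Levels are compared between genes as FPKM (fragments per kilobase of coding length, scaled to sequencing depth) and between libraries as CPM (counts scaled to a common library size by TMM). The summed CPM of 6 genes of vegetative growth was 68242 and 71973 in Y41F, against 75736 and 70007 in WT. That of 10 meiotic and spore genes was 202 and 249.8 CPM in Y41F, against 211 and 207 CPM in WT. Most of this sum came from spo4 and spo6. The level of spo4 was 51.9 and 55.1 CPM in Y41F, against 63.8 and 57.3 CPM in WT. For spo6 it was 64.9 and 78.2 CPM in Y41F, against 74.1 and 70.7 CPM in WT. None of the 10 meiotic and spore genes was at 0 in any library. Of these 10, 0 passed the edgeR test between the groups (adjusted p under 0.05). By log2 fold change 6 lay above 0 and 4 below, with a median of 0.05. The lowest p-values were those of mde2, at 0.46 ± 0.13 (SE; edgeR adjusted p = 0.537), and of rec10, a gene of meiotic recombination. The level of rec10 was 10.8 and 21.4 FPKM in Y41F, against 6.7 and 8.35 FPKM in WT. The log2 fold change of rec10 was 1.05 ± 0.32 (edgeR adjusted p = 0.582). Without Y41F library 1 the adjusted p was 6.76e-04, in a fit whose 1 Y41F library, the high one, is assumed to vary like WT and which called 1.28% of 5088 genes. Its part in the results on flocculins was not tested. Both sums overlapped between the groups, as did the levels of gsf2, pfl2, pfl5, pfl7 and mbx2.

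The members are intronless in their coding parts and differ in length. The coding sequence in the deposited tables was 4692 bases for gsf2 (SPCC1742.01), 3852 for pfl5 (SPBC1289.15), 3111 for pfl2 (SPAPB15E9.01c) and 2922 for pfl3 (SPBC947.04). It was 1830 bases for pfl4 (SPCC188.09c), 1119 for mbx2 (SPBC317.01) and 1077 for pfl7 (SPBC359.04c). These lengths equal those of the ASM294v3 annotation for all 7. The expected counts of all 7 were whole numbers in all 4 libraries, whereas 199 to 217 genes per library had fractional counts, the mark of reads split between genes. In the ASM294v3 annotation every member is overlapped on the opposite strand by at least 1 noncoding RNA, 13 in all, and none of those 13 has a row in the tables. No source used here states whether reads were counted by strand, so reads of these antisense RNAs cannot be told apart from those of the members.

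One flocculin made up most of the family's transcript level in both groups. The transcript of pfl2 stood at 674 and 934 FPKM in Y41F, against 997 and 717 FPKM in WT. Its place among all 5133 genes was 251 and 190 in the Y41F libraries, against 183 and 234 in the WT libraries. Of the summed FPKM of the 6 flocculins, pfl2 accounted for 84.5% and 88.1% in Y41F and for 88.6% and 82.4% in WT. Means were 86.3% ± 2.54 in Y41F and 85.5% ± 4.38 in WT (SD, n = 2 each; two-sided exact permutation p = 1.0, where 2 libraries against 2 allow no p below 0.333). The means lay 0.813 percentage points apart, less than the spread within either group. With 2 libraries per group, whether the share differs cannot be settled.

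As a share of counts, which favours long genes, pfl2 took 85.5% (95% exact binomial interval 85.2 to 85.7) and 89.1% (88.8 to 89.3) in the Y41F libraries. In the WT libraries it took 89.8% (89.6 to 90.0) and 83.2% (82.9 to 83.5). These intervals cover counting error only. Those of libraries of the same group did not overlap, so they differed by more than counting error.

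**Figure D1:**
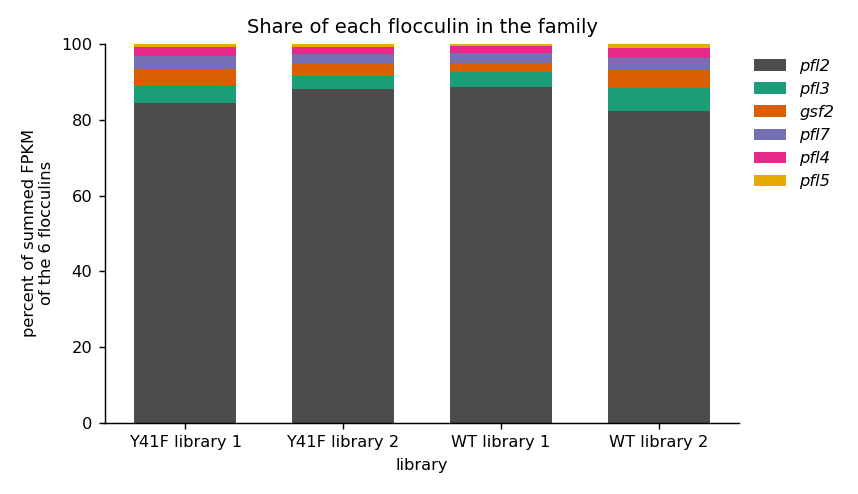
Percent of the summed FPKM of the 6 flocculins (vertical axis) that each flocculin holds, with 1 stacked bar per library. The pfl2 segment covers 82.4% to 88.6% of every bar, and no other segment exceeds 6.01%.

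The other flocculins stood far below pfl2 and below the median tested gene, which had 58.4 and 60.7 FPKM in Y41F and 55.3 and 59.4 FPKM in WT. The transcript of pfl3 had 34.1 and 37.3 FPKM in Y41F, against 45.9 and 52.3 FPKM in WT. That of gsf2 had 35.8 and 31.5 FPKM in Y41F, against 26.5 and 40.7 FPKM in WT. The shortest member, pfl7, had 29.2 and 28.0 FPKM in Y41F, against 28.4 and 27.6 FPKM in WT.

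Both pfl4 and pfl5 were the lowest in all 4 libraries. The transcript of pfl4 had 17.7 and 20.8 FPKM in Y41F, against 20.7 and 23.7 FPKM in WT. That of pfl5 had 6.6 and 8.36 FPKM in Y41F, against 6.72 and 8.66 FPKM in WT. The order from highest to lowest began with pfl2 and ended with pfl4 and pfl5 in every library. The places between changed: pfl3 came second in 3 libraries but gsf2 did in Y41F library 1, and pfl7 stood above gsf2 in WT library 1. The level of pfl3 was above that of pfl7 in all 4 libraries, so only the place of gsf2 changed.

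The gene of the transcription factor, mbx2, had 35.0 and 27.0 FPKM in Y41F, against 23.0 and 39.2 FPKM in WT. Its WT libraries were the lowest and the highest of the 4, and the Y41F libraries lay between them. Its level per length was close to that of gsf2, with a gsf2 to mbx2 ratio of 1.02 and 1.17 in Y41F and of 1.15 and 1.04 in WT. The ratio of pfl2 to gsf2 moved much more, at 18.8 and 29.7 in Y41F and 37.6 and 17.6 in WT.

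**Figure D2:**
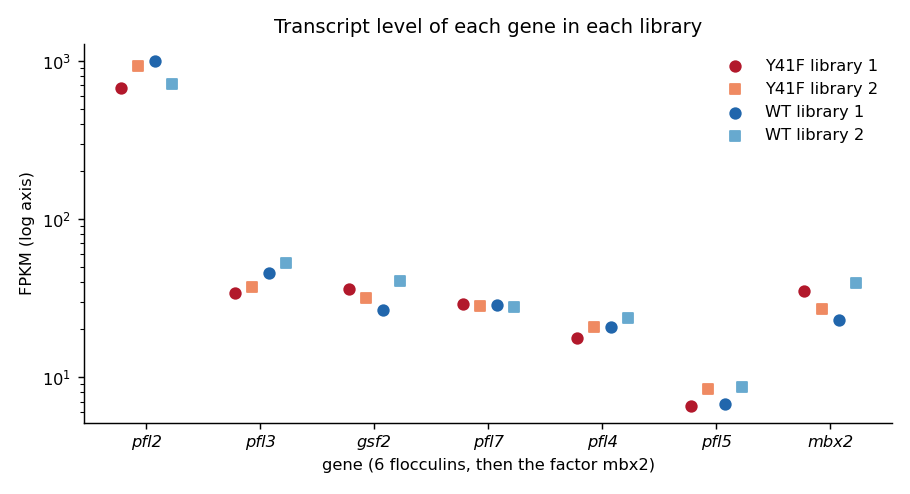
FPKM of each gene (vertical log axis) in the 4 libraries, 1 point per library, with the 6 flocculins ordered by level and mbx2 at the right. The points of pfl2 lie between 674 and 997 FPKM, and all others lie between 6.6 and 52.3 FPKM.

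Between the genotypes, no member passed the test. The fit ran over 5076 genes that passed a filter on low counts, and all 7 members were among them. The test was edgeR's quasi-likelihood test, with a gene called when its Benjamini-Hochberg adjusted p was under 0.05. Of the members 0 of 7 were called and 1 of 7 had an unadjusted p under 0.05. Over all genes tested, 0.0197% were called (1 gene, yhb1, for a nitric oxide dioxygenase, higher in Y41F) and 6.7% had an unadjusted p under 0.05 (1.79% lower in Y41F). DESeq2, the other count test, called 1 of 7 members, pfl3, and 1.32% of all genes (68 of 5133).

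The flocculin with the clearest separation was pfl3, lower in Y41F. It had 101 and 110 CPM (2418 and 2546 counts) in Y41F, against 143 and 155 CPM (3062 and 3269 counts) in WT. Both Y41F libraries lay below both WT libraries, and libraries of 1 group differed little, with library 2 at 1.09 times library 1 in Y41F (95% counting interval 1.03 to 1.15) and 1.08 times in WT (1.03 to 1.14). The log2 fold change was -0.50 ± 0.09 (SE; 95% interval -0.73 to -0.28, not adjusted for the number of genes), a level 0.705 times that of WT. By p it was number 27 of the 5076 genes, and its edgeR adjusted p of 0.283 missed the threshold. The DESeq2 adjusted p was 0.00311. Without Y41F library 2 the edgeR adjusted p was 0.0177, but that fit has 1 Y41F library, assumed to vary like the WT libraries, and it called 3.88% of 5081 genes. In these bulk cultures, fewer cells with the transcript and less of it per cell cannot be told apart.

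The gene pfl4 was also lower in both Y41F libraries than in either WT library, but was not called. It had 32.6 and 38.1 CPM in Y41F, against 40.3 and 43.7 CPM in WT. Its log2 fold change was -0.25 ± 0.12 (SE; 95% interval -0.55 to 0.05; edgeR adjusted p = 0.797), and it was -0.13 without Y41F library 1. With pfl3 it made 2 of 7 members whose groups did not overlap, where 37.2% of all genes tested had groups without overlap and 18.0% had both Y41F libraries below both WT libraries. That count is near the background and is no result about the members.

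The remaining 5 members had overlapping groups. The log2 fold change of pfl2 was -0.15 ± 0.24 (SE; 95% interval -0.73 to 0.44; edgeR adjusted p = 0.929). That of gsf2 was -0.04 ± 0.19 (-0.51 to 0.43; 0.977) and that of pfl5 -0.08 ± 0.17 (-0.49 to 0.33; 0.949). For pfl7 it was -0.02 ± 0.11 (-0.29 to 0.25; 0.982), the narrowest of these intervals. For mbx2 it was -0.04 ± 0.26 (-0.68 to 0.60; edgeR adjusted p = 0.984), the widest of them. The intervals of pfl2, gsf2 and mbx2 still hold a change as large as that of pfl3, so a change of that size is not excluded for them.

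The direction of these small values turned with single libraries. Without Y41F library 2 the log2 fold change of gsf2 was 0.06 and that of mbx2 0.14, and without WT library 2 they were 0.26 and 0.35. For pfl2 it was 0.08 without Y41F library 1 and 0.16 without WT library 1. All 7 values lay below 0 under TMM scaling, but 5 of 7 did with library size as the only scaling, where gsf2 and pfl7 lay above 0, and 4 of 7 did on log2(FPKM + 1), where mbx2 did so too. Of all genes tested, 51.3% had a value below 0 under TMM scaling. The median of the 6 flocculins was -0.11, beside a median of 0.00 over all genes tested. With library size only the median of all genes was 0.042, and on log2(FPKM + 1) it was 0.041. The member values above 0 under these 2 settings lay below those medians, so their change of sign went with a shift of all genes.

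The summed level of the 6 flocculins was 798 and 1060 FPKM in Y41F, against 1125 and 870.0 FPKM in WT. The groups overlapped, and the sum in Y41F was 0.93 times that in WT (two-sided exact permutation p = 0.667). Since pfl2 makes up most of this sum, it follows pfl2. Without pfl2, a sum that was not planned, the other 5 summed to 123 and 126 FPKM in Y41F, against 128 and 153 FPKM in WT. This is 0.89 times (exact permutation p = 0.333, the smallest this design can give). The mean of this sum was 124.7 FPKM in Y41F and 140.6 FPKM in WT. Of these means pfl3 alone gave 35.7 and 49.1 FPKM, so most of the difference is that of pfl3. The 6 genes held 0.252% and 0.335% of all expected counts in Y41F, against 0.355% and 0.275% in WT.

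Between the WT libraries mbx2, pfl2 and gsf2 differed most of the members, and between the Y41F libraries pfl2, mbx2 and pfl5 did. In CPM, mbx2 in Y41F library 2 was 0.767 times its level in library 1 (95% counting interval 0.694 to 0.847). In WT the same ratio was 1.62 (1.46 to 1.80). For gsf2 the ratio was 0.873 (0.834 to 0.914) in Y41F and 1.46 (1.39 to 1.53) in WT. For pfl5 it was above 1 in both groups, at 1.26 (1.13 to 1.40) in Y41F and 1.22 (1.09 to 1.37) in WT.

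The flocculin with the highest transcript level moved the other way. For pfl2 the ratio of library 2 to library 1 was 1.38 (1.36 to 1.39) in Y41F and 0.682 (0.674 to 0.69) in WT. All 6 ratios of pfl2, gsf2 and mbx2 exclude 1 by counting error alone. WT library 2 and Y41F library 1 were thus the high libraries for gsf2 and mbx2 and the low ones for pfl2, with WT library 1 and Y41F library 2 the reverse. This split follows neither genotype nor library number.

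Differences of this size between WT libraries were uncommon among the 4687 tested genes that averaged 10 CPM or more. A larger difference between the WT libraries, in either direction, was found in 1.69% of these genes for mbx2, 2.54% for pfl2 and 2.62% for gsf2. Between the Y41F libraries it was found in 9.3%, 6.21% and 30.3%. The median difference between libraries of 1 group was 0.13 on the log2 scale in Y41F and 0.11 in WT. The flocculin genes pfl3 and pfl7 stood near that median, at 0.12 and 0.07 in Y41F and 0.11 and 0.12 in WT.

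**Figure D3:**
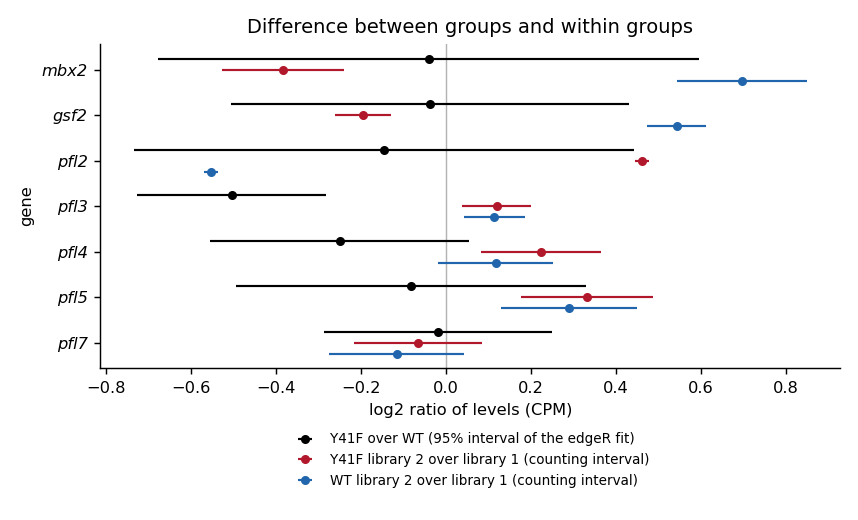
Log2 ratios of CPM (horizontal axis) for each gene: Y41F over WT with the 95% interval of the edgeR fit (black), and library 2 over library 1 within Y41F (red) and within WT (blue) with 95% counting intervals. For mbx2, gsf2 and pfl2 the red and blue points lie on opposite sides of 0 and the black interval spans 0, and for pfl3 the black interval lies wholly below 0.

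The genes with the most similar profile to pfl2 and to mbx2 were sought among those averaging 10 CPM or more. Likeness was the Euclidean distance between centred log2(CPM + 1) values over the 4 libraries, as a description with no test, since 4 points are shared by all genes. The 5 nearest to pfl2 of 4686 genes were eng1, for an endo-glucanase of cell separation, mrm2, SPBC215.06c, rbd2 and gas1, for a glucanosyltransferase of the cell wall. Their distances were between 0.10 and 0.18. The level of eng1 was 403 and 532 CPM in Y41F, against 588 and 438 CPM in WT, high and low in the same libraries as pfl2.

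Nearest to mbx2 were rsn1 at 0.12, gsf2 at 0.16, wtf4 at 0.23, SPCC320.03 at 0.25 and eis1, for an eisosome protein, at 0.27. The gene wtf4 belongs to a repeated family, so its counts may hold reads of other copies. The flocculin gsf2 was thus number 2 of 4686 by likeness to mbx2. The other flocculins were much farther away, with pfl5 at number 2078, pfl7 at 2620, pfl4 at 3023, pfl3 at 4006 and pfl2 at 4570, near the far end.

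**Figure D4:**
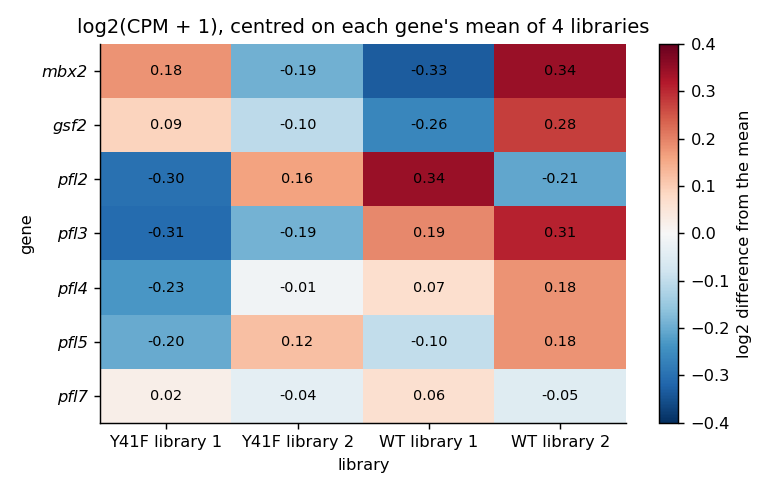
Log2(CPM + 1) of each gene minus its own mean over the 4 libraries, with red above and blue below that mean and the value in each cell. The rows of mbx2 and gsf2 have the same signs in all 4 libraries and pfl2 the opposite ones, while pfl3 is below its mean in both Y41F libraries and above it in both WT libraries.

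Other flocculin and adhesin genes were not called. Of 6 tested, 0 were called in either direction, 3 lay above 0 and 3 below, and the median log2 fold change was 0.14. That median was -0.027 without Y41F library 2, and -0.073 over the 4 genes that averaged 10 CPM or more. The flocculin gene pfl8 had 44.6 and 44.3 FPKM in Y41F, against 53.8 and 126 FPKM in WT, and was above pfl3 in all 4 libraries. WT library 2 was far above the rest. The log2 fold change was -1.05 ± 0.36 (SE; edgeR adjusted p = 0.661), and -0.36 without WT library 2. With pfl6, pfl8 and pfl9 counted in, pfl2 held 78.7% and 83.9% of the family's summed FPKM in Y41F, against 84.0% and 71.4% in WT. Its mean share was 81.3% ± 3.62 in Y41F and 77.7% ± 8.94 in WT (SD, n = 2 each). The difference was 3.61 percentage points, against 0.813 over the 6 flocculins. In the same sum pfl8 held 5.21% and 3.98% in Y41F, against 4.53% and 12.6% in WT.

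The gene pfl6 was scarce, at 4.2 and 4.12 FPKM in Y41F, against 2.24 and 2.51 FPKM in WT. It was higher in both Y41F libraries by 0.76 ± 0.22 on the log2 scale (SE; edgeR adjusted p = 0.556), but its counts were fractional and so shared with other genes. The mating adhesin genes mam3 and map4 had -0.09 ± 0.16 and -0.08 ± 0.10 and also shared reads. The large surface protein gene SPBPJ4664.02 had 0.36 ± 0.22, with 12.0 and 17.4 FPKM in Y41F, against 12.5 and 9.62 FPKM in WT. Single libraries moved it, to 0.068 without Y41F library 2 and to 0.61 without WT library 1.

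Known regulators of flocculation showed no called change. Of 12 tested, 0 were called, 3 lay above 0 and 9 below, and the median log2 fold change was -0.06. Without Y41F library 1 the median was 0.027 and 7 lay above 0. The gene of the CSL-type factor Cbf12 had 55.3 and 30.5 FPKM in Y41F, against 24.7 and 30.5 FPKM in WT. Y41F library 1 alone was high, and the log2 difference of 0.60 ± 0.28 (SE; edgeR adjusted p = 0.797) became 0.11 without it. Without Y41F library 2 it was 0.96, with an edgeR adjusted p of 0.00111 that sets this 1 high library against the spread of WT.

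The MADS-box gene mbx1 had 71.7 and 67.5 FPKM in Y41F, against 59.5 and 53.3 FPKM in WT. It differed by 0.25 ± 0.11 on the log2 scale (SE; edgeR adjusted p = 0.765). The most abundant of this list, the corepressor gene tup12 and the adhesion regulator gene adn2, had -0.08 ± 0.09 and -0.05 ± 0.09. The gene gsf1, named for galactose-specific flocculation and added after the identifiers were seen, had 60.8 and 59.5 FPKM in Y41F, against 55.5 and 60.1 FPKM in WT. Its log2 fold change was 0.01 ± 0.08. Its 95% interval was -0.18 to 0.21. In the Mediator kinase module, whose loss causes flocculation in fission yeast, 0 of 4 genes were called and all 4 lay above 0, with a median of 0.16. The values were 0.23 ± 0.14 for srb8 and 0.21 ± 0.11 for med13 (edgeR adjusted p = 0.811 and 0.797). Without WT library 1 the median was 0.039 and srb8 stood at 0.059, without WT library 2 srb8 stood at 0.44, and without Y41F library 1 the module had 3 of 4 genes above 0.

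**Figure D5:**
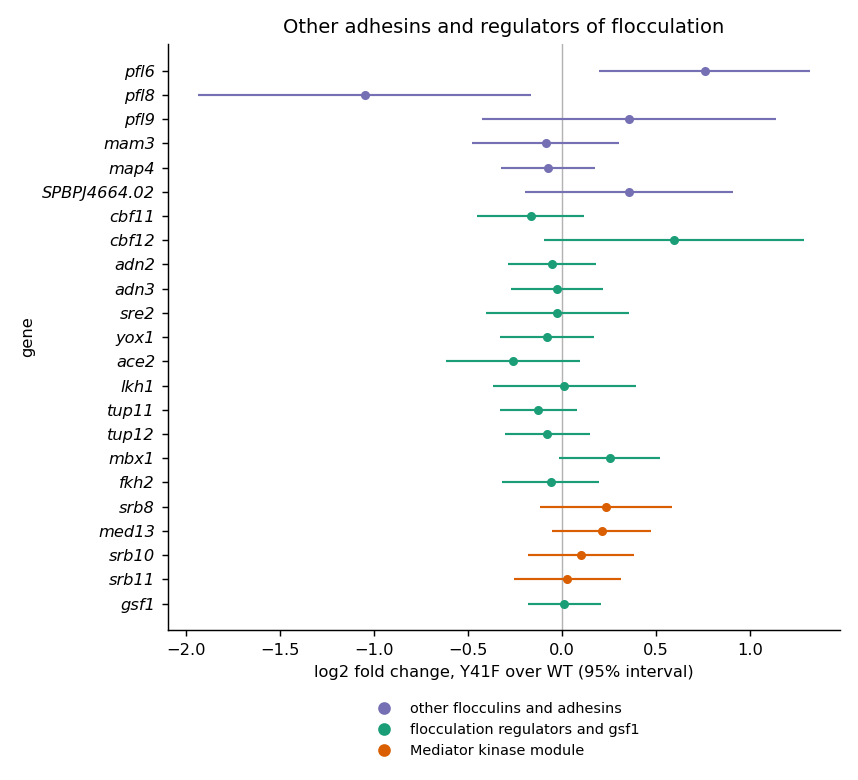
Log2 fold change, Y41F over WT, with the 95% interval of the edgeR fit (horizontal axis) for other flocculin and adhesin genes, regulators of flocculation and the Mediator kinase module. The intervals of pfl6 (above 0) and pfl8 (below 0) exclude 0 without adjustment for the number of genes, and those of the regulators and of the module include it.

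Genes of the cell wall, in which flocculins are anchored, were not called either. Of 24 remodelling enzymes and wall proteins tested, 0 were called, 14 lay above 0 and 10 below, and the median log2 fold change was 0.05. Single values ran from -0.52 to 0.44. The most abundant were the glucanosyltransferase gene gas2, at 1009.8 and 1500.0 FPKM in Y41F, against 769 and 1033 FPKM in WT, and the wall protein gene ecm33, at 1135 and 1199 FPKM in Y41F, against 1005 and 1051 FPKM in WT. Their log2 fold changes were 0.44 ± 0.22 and 0.14 ± 0.10, and that of the glucan synthase gene bgs1 was 0.21 ± 0.10 (SE; edgeR adjusted p = 0.797, 0.838 and 0.797). For gas2 the value was 0.70 without Y41F library 1 and 0.13 without Y41F library 2.

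Genes linked to the mannose, galactose or pyruvate of surface glycans were tested as 28 genes. Of these 0 were called, 19 lay above 0 and 9 below, with a median of 0.07. The mannosyltransferase gene omh1 had 89.6 and 82.2 FPKM in Y41F, against 54.5 and 57.65 FPKM in WT. The groups stood apart by 0.57 ± 0.09 on the log2 scale (SE; edgeR adjusted p = 0.244). DESeq2 called omh1 (adjusted p = 8.91e-04), and without Y41F library 2, with 1 Y41F library assumed to vary like WT, the edgeR adjusted p was 0.00942. The gene pvg5, of the group needed for pyruvate on galactose residues, had 0.38 ± 0.12 (edgeR adjusted p = 0.621), while the most abundant of the list, pvg1 and ogm2, had 0.04 ± 0.18 and 0.03 ± 0.09.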

How the data were processed

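Total RNA of 4 libraries was sequenced on an Illumina HiSeq instrument. The authors deposited, per the file headers, an RSEM-type expected count and an FPKM value per gene and library. Per the submitters' processing notes, the tools were BWA, Bowtie and RSEM (no versions or roles) and the genome build was ASM294v2. Tables list genes above 0, and a gene missing from 1 library was taken as 0. Symbols came from an ASM294v3 table, which matched 5100 of 5133 identifiers. As builds differ, no coordinates or sequences are given.

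Expected counts were rounded and fitted with edgeR 4.0.16 (R 4.3.3; TMM, default filter, group as the only term), adjusting over all 5076 genes tested. The test was checked on simulated counts with fold changes larger than that of any member. That check does not show whether changes as small as those of the members would be called. DESeq2 1.42.0 and limma 3.58.1 were alternatives. The smallest member count was 575 (95% Poisson interval 529 to 624).

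Members and gene lists were chosen with earlier results of these data known. Of 95 list entries, 4 (rfl1, crh1, crh2, sup11) matched no symbol or synonym, so they are not analysed here under those names. The entry pvg4 is a synonym of mbx2. The text names members, called genes, the 2 most abundant and the 2 lowest-p genes of each list and the 5 nearest profiles to pfl2 and mbx2, unless said otherwise. Outside this rule, map4 was chosen after its values were seen, and gsf1 was added after the identifiers were seen. Vegetative and meiotic lists are given as sums, and the 2 lowest-p and 2 most abundant genes of the meiotic list are named as well.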

Additional observations from a re-analysis of the deposited data

How the results depend on the processing

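The count of called genes was 1, also with DESeq2's size factors or library size as the scaling, with no filter or one of 10 CPM, and on the log2(FPKM + 5) scale. It was 3 on log2(FPKM + 1) and 68 with DESeq2. Leaving out 1 library gave 0 to 197: 65 without Y41F library 1, 197 without Y41F library 2 and 0 without either WT library (168 and 262 at an unadjusted p under 0.05). In these fits the lone library of a group is assumed to vary like the other group. The replicate numbers are shared between groups, but no label says that they mark a pair. With the replicate block 87 genes were called, against 1, and pfl3 was among them (edgeR adjusted p = 0.0327), as were omh1 (0.0227) and rec10 (0.0358). Deviations of same-numbered libraries from their group means correlated at 0.45 across 5076 genes, which are not independent. The count of called members was 1 (pfl3) with DESeq2 and with the block, and 0 to 1 without 1 library. For pfl3 the log2 fold change stayed below 0 throughout (-0.56 to -0.44 without 1 library). In all, 66 of 84 member values kept their sign. Values that crossed 0 were gsf2 at 0.0023 (library size only), 0.030 and 0.024 (log2(FPKM + 1) and + 5), pfl7 at 0.029, 0.028 and 0.025 in the same order, and mbx2 at 0.032 and 0.025 on the FPKM scales. Under these settings the median over all genes tested was 0.042, 0.041 and 0.037 in that order, above each of these values. Without 1 library the ranges were -0.28 to 0.26 for gsf2, -0.40 to 0.16 for pfl2, -0.37 to -0.13 for pfl4, -0.26 to 0.082 for pfl5, -0.075 to 0.043 for pfl7 and -0.34 to 0.35 for mbx2. The difference in share was -0.949 to 1.38 percentage points for gsf2, against 0.213 (below 0 without library 1 of Y41F or of WT), and -2.28 to 3.91 for pfl2, against 0.813 (below 0 without library 2 of Y41F or of WT). The log2 ratio of summed flocculin FPKM was -0.31 to 0.10, against -0.11, and lay above 0 without Y41F library 1 or WT library 1. The cause was not tested.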
